A study of Homo sapiens with 14 samples.

Results

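The replication-dependent histone genes are the gene copies that supply linker histone H1 and the core histones H2A, H2B, H3 and H4 during S phase. Members were chosen by name alone, as every gene row named H1-1 to H1-5, H2AC, H2BC, H3C or H4C with a number, which gave 65 of the 59471 gene names in the count files. They comprised 5 H1, 16 H2A, 17 H2B, 13 H3 and 14 H4 genes, of which 54 lie on chromosome 6 and 11 on chromosome 1. RNA-seq was performed on SCC23 cells, an established line of human head and neck squamous cell carcinoma (HNSCC). Cells were either wild type for KMT2D (WT, transfected with Cas9 and a guide to LacZ) or carried a CRISPR-Cas9 knockout of KMT2D (KO), a histone H3 lysine methyltransferase. The KO cells came as the lines KO1 and KO2, sorted for the GFP of the Cas9 plasmid with no single-cell cloning described, so a line need not be 1 clone. Each genotype was grown in high-glucose medium (+Glc) or deprived of glucose for 6 hours (-Glc). The 14 libraries fall into 3 WT +Glc, 4 KO +Glc, 3 WT -Glc and 4 KO -Glc, over experiments numbered 1 and 2 in the labels. Experiment 1 holds 1 WT, 1 KO1 and 1 KO2 library in each glucose condition, and experiment 2 holds 2 WT, 1 KO1 and 1 KO2. Nothing in the labels says whether the WT libraries of 1 experiment are separate cultures, so p-values measure the spread between these libraries, which may be technical.

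Histone mRNAs of these genes are made in step with DNA synthesis and are the only metazoan mRNAs that normally carry no poly(A) tail. Their 3′ end is a conserved stem-loop, which is bound by SLBP, the stem-loop binding protein, and cut just downstream by the U7 snRNP with the cleavage factors CPSF3 (CPSF-73), CPSF2 and symplekin. Transcription is driven by NPAT, a substrate of cyclin E-CDK2 held at the histone locus body with CASP8AP2 (FLASH), and the mRNAs are degraded through UPF1 and the exonuclease ERI1 when DNA synthesis stops. Replication-independent histone genes such as H3-3A, H3-3B and H2AZ1 are transcribed through the cell cycle and polyadenylated. The libraries were made from poly(A)-selected RNA, so a normally processed replication-dependent histone mRNA is largely left behind and the reads counted here stand for the portion that was retained.

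The stem-loop is shown for some of the members that were among the highest in their class or that differed between groups. The letters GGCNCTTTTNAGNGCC, 16 bases on the strand of the gene, were searched in the 150 bases after the stop codon. They were found in 61 of 65 members, and the other 4 (H3C6, H2BC10, H2AC15 and H4C13) matched with 1 mismatch. The match began 22 to 67 bases after the stop codon. Of 3030 other protein-coding genes on chromosomes 1 and 6, 5 (0.165%) held it, all of them histone genes (H1-6, H2AC25, H2BC26, H3-4 and H3-7). The sequences below are from GRCh38, 5′ to 3′ on the strand of each gene, with the 16 bases of the stem-loop in capitals and 5 flanking bases on each side in lower case; the coordinates are those of the capitals, which lie in the 3′ untranslated part of the exon.
H1-2, chr6:26055744-26055759, minus strand: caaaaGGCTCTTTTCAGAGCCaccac
H2AC6, chr6:26124669-26124684, plus strand: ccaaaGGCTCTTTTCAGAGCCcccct
H2AC11, chr6:27133515-27133530, plus strand: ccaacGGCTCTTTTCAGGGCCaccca
H2BC5, chr6:26158587-26158602, plus strand: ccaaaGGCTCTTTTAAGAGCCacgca
H2BC9, chr6:26252055-26252070, plus strand: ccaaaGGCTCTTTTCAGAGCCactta
H2BC11, chr6:27132321-27132336, minus strand: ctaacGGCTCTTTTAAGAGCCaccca
H2BC12, chr6:27146366-27146381, minus strand: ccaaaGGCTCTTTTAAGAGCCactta
H3C6, chr6:26225596-26225611, plus strand: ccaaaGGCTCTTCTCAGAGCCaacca
H3C8, chr6:26270923-26270938, minus strand: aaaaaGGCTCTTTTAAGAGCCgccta
H4C9, chr6:27139654-27139669, plus strand: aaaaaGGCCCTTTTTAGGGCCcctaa
H4C15, chr1:149860769-149860784, minus strand: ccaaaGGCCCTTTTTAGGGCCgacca
The form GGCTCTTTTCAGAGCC was the most common, in 38 members, followed by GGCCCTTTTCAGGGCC in 9, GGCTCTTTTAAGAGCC in 8 and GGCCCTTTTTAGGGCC in 4.

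The members differed in where their annotated exons end. In 43 members the exons of the gene model used for counting ended within 100 bases of the stem-loop, and in 22 they ran on for at least 100 bases past it, by 414 bases in H2BC5, 571 in H2BC11 and 1128 in H2AC6. In H1-2 and H2BC12 they ended 4 and 5 bases past the stem-loop. The promoters were described from RefSeq sequence (GRCh38.p14, 250 bases before to 50 after the start), which was matched by symbol for 60 of 65 members. On either strand, CCAAT was present in 85% of the members' promoters against 35.7% of 27305 promoters of all genes, and TATAAA in 68.3% against 12%. The octamer ATTTGCAT, the site of the POU2F1 (OCT1) factor, was present in 43.3% against 1.8%. The octamer was found in 82.4% of the H2B and 73.3% of the H2A promoters. It was found in 9.1% of the H3 promoters and in none of the 12 H4 or 5 H1 promoters. Promoter windows of neighbouring H2A and H2B genes can overlap, as for H2AC6 with H2BC4 and H2AC11 with H2BC11. A shared site then counts for both genes, so the H2A and H2B percentages are not independent. The H3 percentage rests on H3C4 alone. Its window was the same as that of H2AC7 and lay outside the H3C4 gene model used for counting.

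Replication-dependent histone RNA was a small part of these libraries. Each library held 2042 to 9815 reads over the 65 members, and 47 to 55 of the members had a read. The members' summed level was 87.2 to 181 CPM (the count scaled to the library's size with a TMM factor, the unit of every level here), against 1658 to 2493 CPM for 18 replication-independent histone genes. A count was seen in all 14 libraries for 38 members, and 4 (H2AC1, H2BC1, H4C7 and H2AC15) had none in any library. A mean of at least 1 CPM was reached by 19 members, and 5 of them (H2BC12, H2AC6, H1-2, H2BC5 and H4C9) held 61.2% of the summed mean. Of the 22 members whose exons run past the stem-loop, 15 reached a mean of 1 CPM, and of the 43 whose exons end there, 4 did (H2BC12, H1-2, H2AC18 and H1-4).

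Between genes, levels were compared per kb of exon. H2BC12 was highest, with a mean of 42.4 CPM per kb over the 14 libraries (lowest 10.2, highest 104.6), followed by H1-2 with 18.6, H2BC5 with 12.8, H2AC6 with 10.8, H4C9 with 8.36 and H2BC11 with 4.38. The ranges of H1-2 (8.16 to 42.2), H2BC5 (6.77 to 20.8) and H2AC6 (6.44 to 15.3) overlapped, so the order of these neighbours differed by less than their spread over libraries. Among H3 genes the highest was H3C10 with 1.30 CPM per kb. The median over members was 1.00 CPM per kb where the exons run past the stem-loop and 0.365 where they end there.

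**Figure D1:**
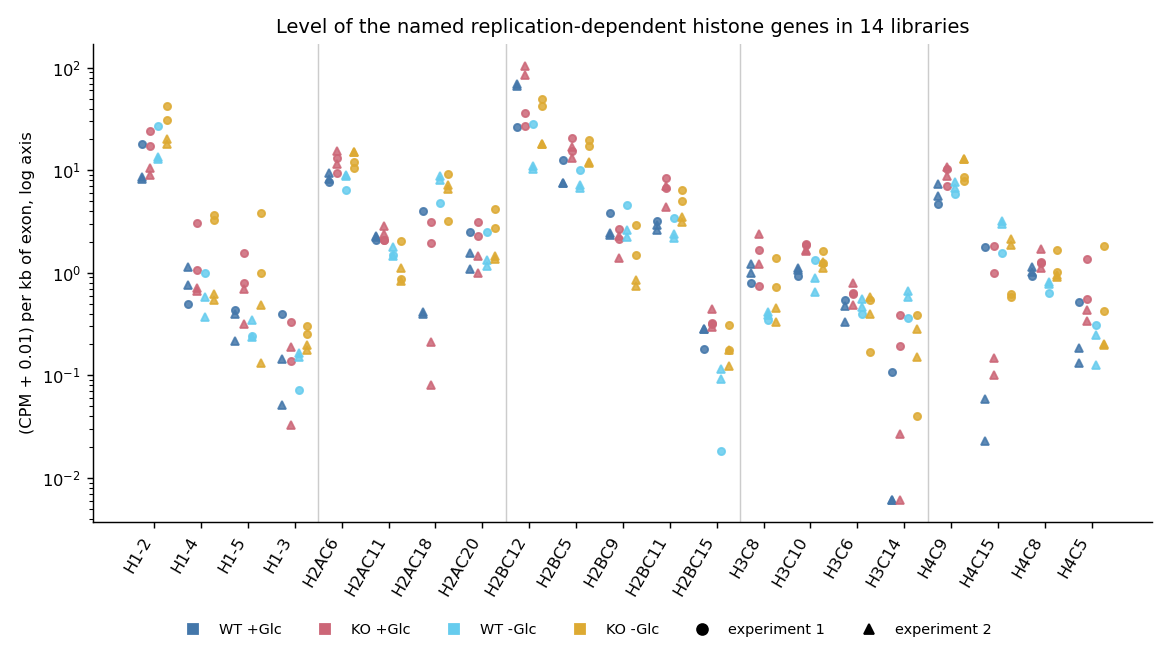
Level of the 21 named members, grouped by histone class, in 14 libraries, as (CPM + 0.01) per kb of exon on a log axis; colours are the 4 groups, circles experiment 1 and triangles experiment 2. H2BC12 reaches 104.6 CPM per kb in experiment 2 with glucose, and H2AC18, H3C14 and H4C15 are lowest in the libraries of that experiment with glucose.

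Several facts of the libraries bear on these genes. The 10 single-read libraries held 15669154 to 31074996 counted reads, and the 4 libraries of experiment 2 with glucose, counted with both mates of a pair, 55962793 to 62968057. KMT2D RNA was 266 to 279 CPM in WT +Glc, 182 to 373 in KO +Glc, 231 to 239 in WT -Glc and 19.9 to 190 in KO -Glc, and passed the test in neither comparison of KO with WT (edgeR, log2 fold changes -0.02 and -0.90). A Cas9 edit need not remove the RNA, so this level does not check the labels, and KO below means the libraries labelled KO. Squamous markers summed to 1287 to 4026 CPM in all libraries, leukocyte markers to at most 1.097 CPM and endothelial markers to at most 4.11, while fibroblast markers were 5.73 to 7.04 CPM in WT +Glc and 12.4 to 25.9 in KO +Glc, and 3.20 to 5.53 in WT -Glc and 7.20 to 13.98 in KO -Glc. Of the fibroblast markers with enough reads to be tested, 3 of 3 were higher in KO with glucose and 1 of 1 without. Among them COL1A2 and COL3A1 had no read in any library of experiment 1. In KO +Glc of experiment 2, counted with both mates, they were at 5.34 and 3.25 CPM and at 5.26 and 3.23 CPM. Of the squamous markers none of 8 was higher and 2 were lower with glucose (KRT14, -1.74, and DSP, -0.51), and 5 of 9 were higher and none lower without. The part of these markers in the results below was not tested.

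The KO1 libraries of experiment 1 stood apart from the other 12 in RNAs that lack a poly(A) tail. RMRP, the RNA of the RNase MRP complex and not polyadenylated, was at 14.3 CPM in KO1 +Glc and 28.3 CPM in KO1 -Glc, against 0.10 to 1.63 CPM in the others. Of 61 members with any count, 24 had their highest level in the KO1 -Glc library of experiment 1. Of those 24, 21 have exons that end at the stem-loop, as do 43 of all 65 members. The 43 include the 4 members with no count, which cannot be highest in any library. The share of all genes highest in that library was not counted. Its size after TMM scaling was the smallest of the 14 (15953740), and some of the 24 rested on few reads there (H2AC7 on 1 and H2BC14 on 4). The summed level of all 43 members with such exons was 88.3 CPM in that library, against 25.2 to 67.3 CPM in the other 13, with KO1 +Glc of experiment 1 inside that range at 43.99 CPM. H1-2 and H2BC12 held most of that sum and differed between experiments in every group. Leaving them out, a choice made after seeing the values, the sum was 33.0 CPM in KO1 -Glc and 18.1 in KO1 +Glc of experiment 1, against 6.37 to 15.1 CPM in the other 12. Single members were high in these libraries too, of either kind of exon end. H1-4 was at 2.40 CPM in KO1 +Glc of experiment 1 and 0.52 to 0.82 in the other KO +Glc libraries, H1-5 was at 3.01 CPM in KO1 -Glc of experiment 1 and 0.09 to 0.79 in the other KO -Glc libraries, and H4C5, whose exons run 1022 bases past the stem-loop, was at 2.70 CPM there and 0.28 to 0.62 in the others. Below, counts of members called are given with and without these libraries, and for genes named from the other lists, calls of KO against WT or of the interaction that change without them are given.

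**Figure D2:**
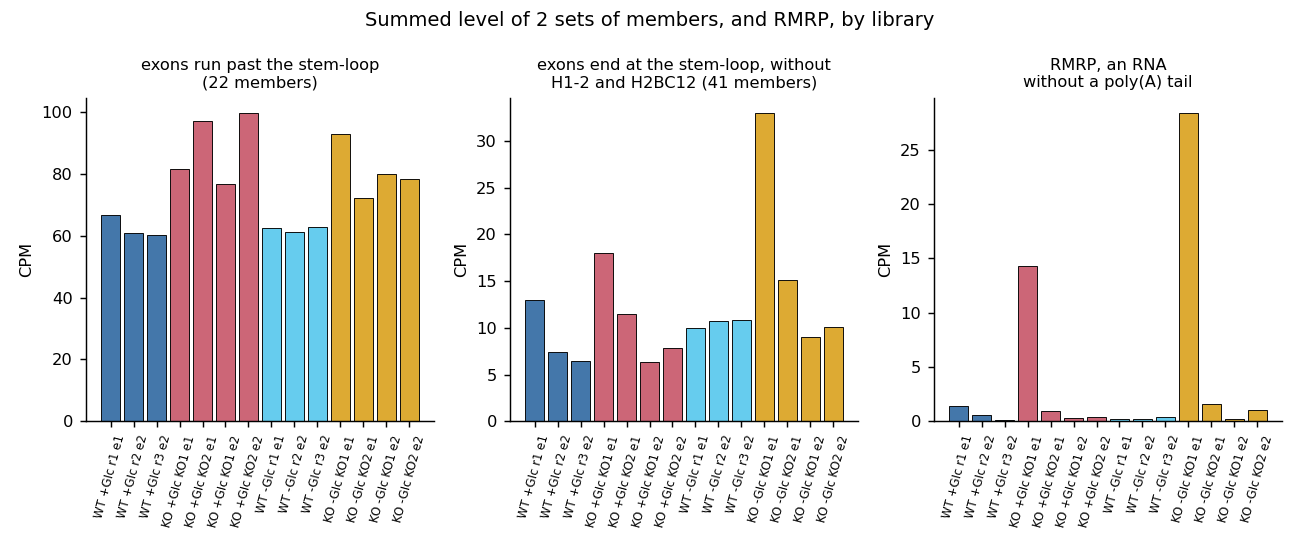
Summed CPM of the 22 members whose exons run past the stem-loop (left), of 41 members whose exons end there, without H1-2 and H2BC12 (middle), and CPM of RMRP (right), one bar for each of 14 libraries coloured by group. At left all 8 KO libraries (72.1 to 99.6) lie above all 6 WT libraries (60.3 to 66.8), and at middle and right the KO1 libraries of experiment 1 are highest. The left sum includes H2AC6, H2BC5, H2BC11 and H4C9, which were called higher in KO in both glucose conditions.

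H2BC12 and the duplicated genes of chromosome 1 differed between experiments. H2BC12, an H2B gene, was at 13.1 to 17.7 CPM in the 3 libraries of experiment 1 with glucose and at 32.7 to 51.8 CPM in the 4 of experiment 2, which were counted with both mates. Without glucose it was at 14.01 to 24.5 CPM in experiment 1 and at 5.04 to 8.998 in experiment 2. H3-3A, which is polyadenylated, was ordered in the same way, at 62.6 to 72.8 and 138 to 170 CPM with glucose and at 66.6 to 88.6 and 18.5 to 24.6 without. Libraries without glucose were all single reads, so the gap between experiments there was present under 1 way of counting.

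For the duplicated genes of chromosome 1 the 4 both-mates libraries were lowest. H2AC18 and H2AC19, H3C14 and H3C15, and H4C14 and H4C15 are pairs with 100% of their coding 50-base words shared, so their reads cannot be assigned to one copy with certainty. H2AC18 and H2AC19 summed to 0.07 to 0.34 CPM in the 4 both-mates libraries and to 1.36 to 5.82 CPM in the other 10. H4C14 and H4C15 summed to 0.08 to 0.46 CPM in the 4 and to 1.12 to 6.19 in the 10, and H3C14 and H3C15 to at most 0.10 and to 0.11 to 1.33. On chromosome 6, H4C11 and H4C12 also share 100% of these words. They summed to 0.22 to 0.408 CPM in the 4 and to 0.408 to 1.02 in the 10. In experiment 2 the counting and the glucose condition cannot be told apart. For every gene, only experiment 1 compares glucose conditions counted alike.

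**Figure D3:**
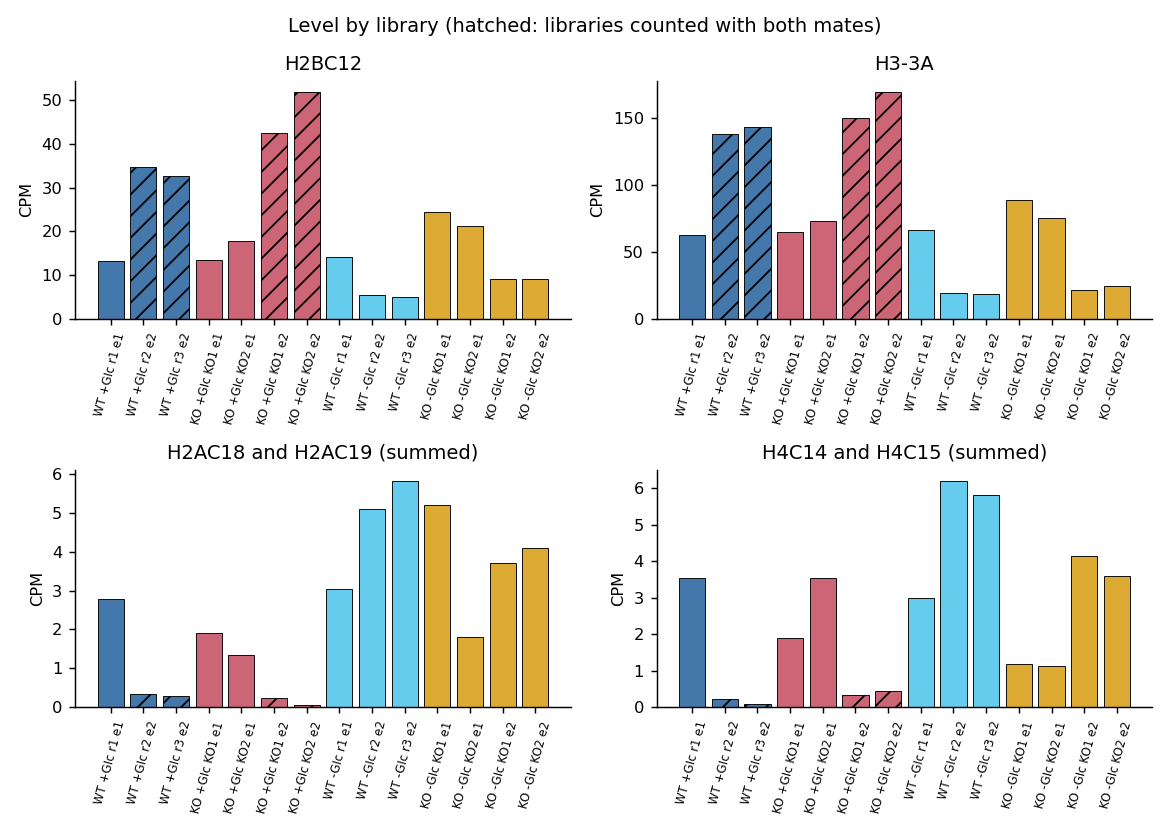
CPM of H2BC12, H3-3A and the summed copies H2AC18 with H2AC19 and H4C14 with H4C15, one bar per library, coloured by group, with hatching for the 4 libraries counted with both mates. In the hatched bars H2BC12 is at 32.7 to 51.8 CPM and the copies sum to at most 0.46 CPM.

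The first comparison asked how these genes differ between KO and WT cells with glucose. H2A, H2B, H3 and H4 genes that rose in KO were H2AC6, H2BC5, H2BC11, H3C10 and H4C9, by 0.61 to 1.12 on the log2 scale, and none fell. Over all genes tested in edgeR's quasi-likelihood test with experiment in the design, 13% were called higher and 11.7% lower at an adjusted p under 0.05 (Benjamini-Hochberg over 20423 genes). Of 65 members 41 had enough reads to be tested; 5 were called higher and none lower, which for the higher side is close to the background. At an unadjusted p under 0.05, 10 members passed, 2 of them lower (H2AC18, -1.06, and H2BC9), and the share of all genes passing there was not counted. DESeq2 called 6 members higher and none lower, against 15.1% and 13% of all genes. The median log2 fold change was 0.33 over the members tested, against 0.02 over all genes, and 30 of 41 were above 0.

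**Figure D4:**
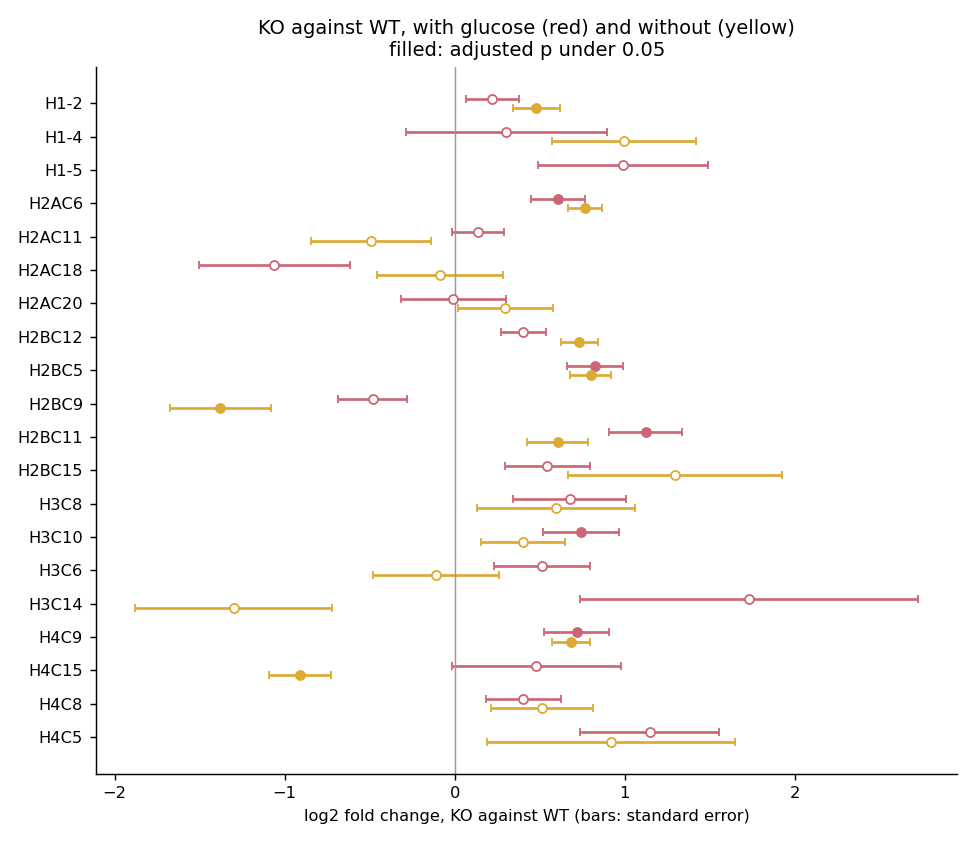
Log2 fold change of KO against WT for the named members tested, with glucose in red and without in yellow; bars are standard errors and filled points have an adjusted p under 0.05. H2AC6, H2BC5, H2BC11 and H4C9 are filled in both colours, between 0.60 and 1.12, and H2BC9 lies below 0 in both.

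H2BC11 showed the largest log2 fold change of the 5. It was at 3.33, 3.08 and 2.70 CPM in WT and at 7.0, 8.86, 4.56 and 7.34 CPM in KO (KO1 and KO2 of experiment 1, then of experiment 2), a log2 fold change of 1.12 ± 0.22 (SE; edgeR adjusted p = 0.0057). The groups did not overlap. H2BC5 was at 10.9 CPM in WT of experiment 1 and at 6.59 and 6.49 CPM in WT of experiment 2, against 13.5, 18.1, 11.6 and 14.6 CPM in KO. Every KO library was above every WT library, and the change was 0.82 ± 0.17 (edgeR adjusted p = 0.0071). In H2BC12 the change was 0.40 ± 0.13 and missed the threshold (edgeR adjusted p = 0.053). H2BC9 was at 7.85, 5.02 and 4.85 CPM in WT and 5.53, 4.41, 2.89 and 4.74 CPM in KO, which overlapped (log2 fold change -0.48 ± 0.20, edgeR adjusted p = 0.12).

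One gene each of H2A, H4 and H3 was called. H2AC6, the H2A gene with the highest level, was at 12.7, 13.6 and 15.5 CPM in WT and at 15.7, 22.2, 19.2 and 25.5 CPM in KO (0.61 ± 0.16, edgeR adjusted p = 0.023). Its lowest KO library lay just above its highest WT library. H4C9, the H4 gene with the highest level, was at 6.03, 9.43 and 7.18 CPM in WT and at 9.16, 13.4, 11.3 and 13.8 CPM in KO (0.72 ± 0.19, edgeR adjusted p = 0.026). Here 1 KO library, KO1 of experiment 1, lay below 1 WT library of experiment 2. H3C10 was at 1.14, 1.38 and 1.32 CPM in WT and at 2.34, 2.28, 2.07 and 2.01 CPM in KO, with no overlap (0.74 ± 0.22, edgeR adjusted p = 0.040). H2AC11 (0.14 ± 0.15) and H1-2, the linker histone gene with most reads (0.22 ± 0.16), were not called.

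By class, 2 of 13 H2B members tested rose, 1 of 9 H2A, 1 of 9 H3 and 1 of 7 H4, and none of 3 H1. Leaving out KO1 of experiment 1 left 5 members called higher, with H2BC12 among them (0.47) and H3C10 no longer called (0.71), so 4 of the 5 calls were the same without the KO +Glc library high in RMRP. The count was sensitive to single libraries, as was the share of all genes called. Without WT +Glc replicate 1, the sole WT library of experiment 1, 1 member was called higher, against 5.31% of all genes. Without WT +Glc replicate 2 there were 3 (8.34% of all genes), and without WT +Glc replicate 3 there were 2 (8.47%). Without KO2 of experiment 2 there were 2 higher and 1 lower (H2BC9, -0.71), against 11.8% and 11.7% of all genes. Without experiment in the design no member was called, and of all genes 2.42% were higher and 2.33% lower. H2BC5 was called with each library left out in turn, and the fold changes of the 5 genes stayed above 0 in every alternative run.

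**Figure D5:**
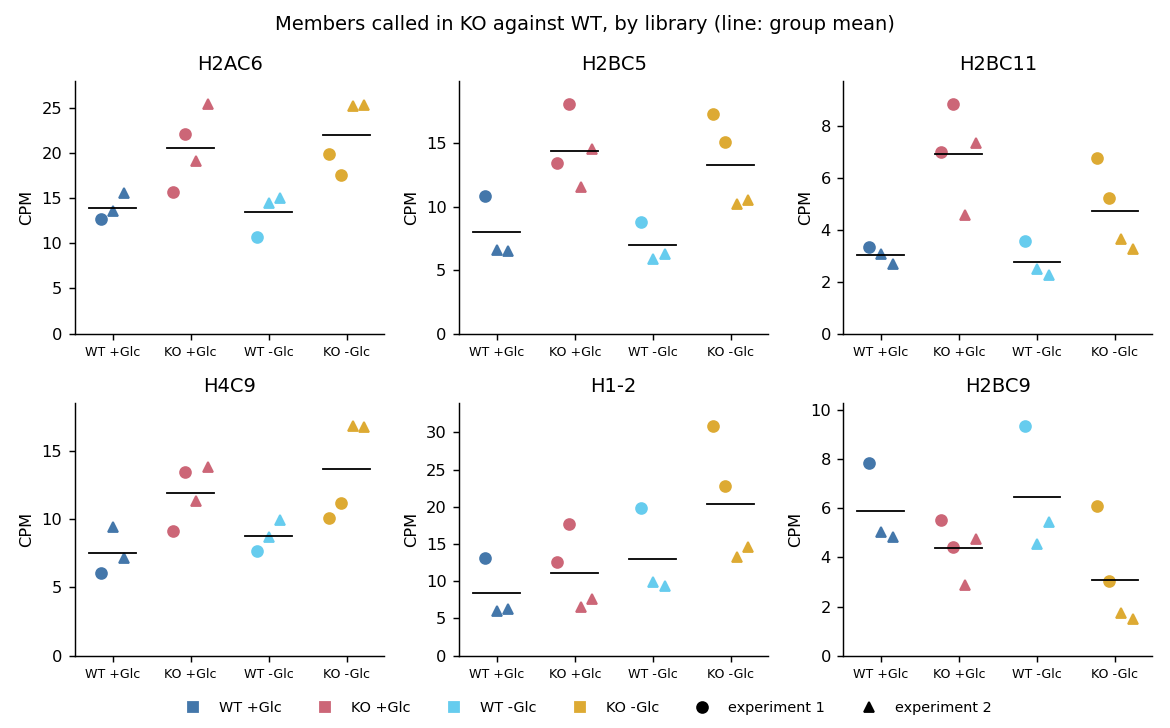
CPM of 6 members called in KO against WT in at least one glucose condition, by group; each point is a library (circles experiment 1, triangles experiment 2) and the line is the group mean. H2BC5 and H2BC11 lie above all WT libraries in each KO +Glc library, and H2BC9 falls to 1.51 to 6.08 CPM in KO -Glc.

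The second comparison set KO against WT cells after 6 hours without glucose. H2AC6, H2BC5, H2BC11, H4C9, H2BC12 and the linker histone gene H1-2 were higher in KO, and H2BC9 and H4C15 were lower. Of 65 members 25 had enough reads to be tested, and 6 were called higher and 2 lower. Over all 16782 genes 25.9% were called higher and 24.9% lower, so the members' shares lie below the background. The median was 0.40 over the members and 0.00 over all genes, with 17 of 25 above 0.

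H2BC5 was at 8.80, 5.90 and 6.28 CPM in WT and at 17.3, 15.1, 10.3 and 10.6 CPM in KO (KO1 and KO2 of experiment 1, then of experiment 2), a log2 fold change of 0.80 ± 0.12 (edgeR adjusted p = 0.0017). H2AC6 was at 10.8, 14.5 and 15.1 CPM in WT and at 19.9, 17.6, 25.2 and 25.3 CPM in KO (0.77 ± 0.10, edgeR adjusted p = 0.00088). H4C9 was at 7.66, 8.68 and 9.94 CPM in WT and at 10.1, 11.2, 16.8 and 16.7 CPM in KO (0.68 ± 0.11, edgeR adjusted p = 0.0026). In none of these did the genotypes overlap. H2BC12 was at 14.01 CPM in WT and 24.5 and 21.1 in KO of experiment 1, and at 5.39 and 5.04 in WT and 8.97 and 8.998 in KO of experiment 2 (0.73 ± 0.11, edgeR adjusted p = 0.0017). The genotypes separated within each experiment and overlapped when the experiments were pooled. H2BC11 changed by 0.60 ± 0.18 (edgeR adjusted p = 0.028) and H1-2 by 0.48 ± 0.14 (edgeR adjusted p = 0.025).

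Of the members that fell, H2BC9 was at 9.34, 4.56 and 5.43 CPM in WT and at 6.08, 3.03, 1.76 and 1.51 CPM in KO (log2 fold change -1.38 ± 0.29, edgeR adjusted p = 0.0076). Only KO1 of experiment 1 overlapped the WT range. H4C15 was at 2.99, 6.19 and 5.82 CPM in WT and at 1.19, 1.12, 4.13 and 3.60 CPM in KO (-0.91 ± 0.18, edgeR adjusted p = 0.0060), with KO below WT in each experiment; its reads may belong to H4C14, and its exons overlap those of H3C15. The other H2B genes included H2BC15, at 0.09, 0.62 and 0.49 CPM in WT and 1.69, 0.95, 0.95 and 0.67 CPM in KO, which was not called (1.29 ± 0.63, edgeR adjusted p = 0.13) and whose exons overlap H2AC15 and H2AC16.

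Some libraries without glucose were nearly alike. Over all genes, counts of the 2 WT libraries of experiment 2 differed with a chi-square of 1.66 per degree of freedom and those of the 2 KO libraries with 1.71, against 23.0 or more in the other pairs of 1 group and experiment; over the members the values were 0.71 and 0.93, within sampling noise. The KO pair is labelled KO1 and KO2, and these labels are in doubt. KRT5, a keratin, was at 180 and 185 CPM in the pair, while it was at 1.51 to 15.4 CPM in the other 3 KO1 libraries and at 82.9 to 225 CPM in the other 3 KO2 libraries. The names KO1 and KO2 of experiment 2 without glucose therefore stand for labels only, and no result here compares the lines. Each such pair summed to 1 library, 1 member was called higher, H2AC6, and none lower, against 8.99% and 7.52% of all genes. Without experiment in the design 1 was called higher, H2BC5, and none lower, against 10.2% and 11.6% of all genes. Leaving out KO1 of experiment 1, the library highest in RMRP, gave 8 higher and 6 lower of 24 members, where 36.7% and 37.7% of all genes were called, so both shares were again below the background. With the labels of the KO pair in doubt, KO1 of experiment 1 may be the only KO1 library without glucose. Leaving it out may then also leave out that line. The added lower genes were H2AC11 (-0.81), H3C14 (-1.79) and the copies H2AC18 (-0.40) and H2AC19 (-2.33). H1-2 and H2BC11 lost their call when any one of WT -Glc replicates 1, 2 and 3 or of KO1 and KO2 of experiment 2 was left out, and their log2 fold changes then lay between 0.45 and 0.69.

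KO libraries without glucose had TMM factors of 0.863 to 0.893, against 1.03 to 1.09 in WT. With plain library-size scaling the median of all genes moved from 0.00 to -0.25, with 2726 genes higher and 6295 lower in place of 4342 and 4179. The members then stood at 4 higher and 2 lower, with a median of 0.15. A scaling moves all genes by nearly the same amount, so the members' distance from all genes is not tested by it.

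A test of the difference between both effects called no member. Over all 18678 genes 4.73% were called higher and 6.54% lower in this interaction; of 36 members tested none was called by edgeR or by DESeq2, and 3 had an unadjusted p under 0.05 in edgeR (H3C14, H4C15 and H2BC9, all below 0) and 4 in DESeq2. Library-size scaling moved the median of all genes to -0.23, with 264 higher and 2402 lower in place of 884 and 1221, and that of the members to 0.01. The KO effects of H2BC5 (difference 0.00 ± 0.21) and H4C9 (-0.01 ± 0.24) were nearest to equal, while H2BC11 differed by -0.50 ± 0.28 and H2BC12 by 0.35 ± 0.17. Without both KO1 libraries of experiment 1, 4 of 35 members were lower (H2BC9, H2AC11, H3C14 and H4C15), the same share as the 11.4% of all genes; without KO1 -Glc of that experiment alone 3 were (H2BC9, H2AC11 and H3C14), and without WT +Glc replicate 1 it was 1, H4C15. The members' median was 0.23 in all libraries and -0.14 without WT -Glc replicate 1. For H3C14 and H4C15, both on chromosome 1 with an identical copy, the glucose conditions of experiment 2 also differ in counting.

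Glucose deprivation changed few members. H1-2 rose in both genotypes. It was at 13.2, 5.96 and 6.23 CPM in WT +Glc and at 19.8, 9.92 and 9.31 CPM in WT -Glc (0.64 ± 0.10, edgeR adjusted p = 0.024), and at 12.6, 17.7, 6.55 and 7.67 CPM in KO +Glc and 30.8, 22.8, 13.2 and 14.7 CPM in KO -Glc (0.88 ± 0.17, edgeR adjusted p = 0.0092). Within each experiment every deprived library was above every library with glucose of its genotype, in experiment 1 too, where both were counted alike.

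In WT cells 29 members were tested. H3C8 fell from 1.90, 2.40 and 2.96 CPM to 0.82, 0.92 and 0.99 CPM (-1.39 ± 0.21, edgeR adjusted p = 0.024) and H2BC15 from 0.97, 1.55 and 1.54 CPM to 0.09, 0.62 and 0.49 CPM (-1.88 ± 0.42, edgeR adjusted p = 0.043), with no overlap in either. In experiment 2 the counting changed with the condition. Experiment 1, the first value of each set, was counted alike but holds 1 WT library per condition. H3C8, H2BC15 and H1-2 made 1 higher and 2 lower, against 7.15% and 7.58% of 17227 genes, and the members' median was -0.06. These calls moved with the libraries used. Without WT +Glc replicate 2 or 3, or WT -Glc replicate 2 or 3, no member was called. In each of these fits at most 1 gene of all was called, so the loss is not particular to the members. Leaving out WT +Glc replicate 1 or WT -Glc replicate 1 leaves both conditions together in experiment 2 alone, where they also differ in counting. In these fits 6 of 31 were higher and 7 lower, near the background of 25.7% to 25.8% and 21.7% to 21.8% of all genes.

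In KO cells 27 members were tested, and H1-2 and H2AC18 were called higher and none lower, against 14% higher and 16% lower of 16057 genes. At an unadjusted p under 0.05, 3 members were lower (H2AC11, H2BC11 and H2BC15), and DESeq2 called 1 of them, H2AC11 (-0.94). H2AC18 was at 1.72 and 1.07 CPM with glucose and 5.01 and 1.74 without in experiment 1, and at 0.11 and 0.03 CPM with glucose and 3.56 and 3.89 without in experiment 2, where the counting changed with the condition. Its log2 fold change was 3.24 ± 1.03 (edgeR adjusted p = 0.049) and in experiment 1 alone 1.24, not called, and the call was also lost (log2 fold changes 2.41 to 3.83) without any one of KO2 of experiment 1 with glucose, KO1 of experiment 1 without glucose, and KO1 or KO2 of experiment 2 in either condition. Without KO1 -Glc of experiment 1, 6 of 29 members were lower, near the 19.9% of all genes in that fit: H2AC11 (-1.38), H2BC9 (-1.03), H2BC11 (-0.72), H2BC15 (-1.16), H3C8 (-1.61) and H4C3 (-1.71). The members' median was -0.25, and under library-size scaling, which moved the median of all genes to -0.20, it was -0.45 with 1 higher and 3 lower (all genes 1005 higher and 3893 lower, in place of 2240 and 2573).

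The genes that act on these mRNAs were followed from lists of known factors. SLBP was at 158 to 169 CPM in WT +Glc, 136 to 162 in KO +Glc, 162 to 165 in WT -Glc and 157 to 170 in KO -Glc, and was called in none of the 5 comparisons. NPAT was at 12.5 to 18.2 CPM in every library of experiment 1 and at 29.1 to 41.3 CPM in every library of experiment 2, and was likewise never called; without the KO1 libraries of experiment 1 its difference of the KO effects was called (0.45 ± 0.11, edgeR adjusted p = 0.014). CASP8AP2 was at 67.0 to 69.6 CPM in WT and 44.3 to 45.0 in KO of experiment 2 without glucose, and at 28.5 against 19.9 and 16.8 CPM in experiment 1. It fell by 0.64 on the log2 scale in KO without glucose (SE 0.09, edgeR adjusted p = 0.0014) and was at -0.50 ± 0.19 with glucose (edgeR adjusted p = 0.093), which without KO1 of experiment 1 became -0.62 ± 0.17 (edgeR adjusted p = 0.031).

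Of 18 tested genes for 3′ end processing, 5 were higher and 3 lower in KO with glucose, and 6 and 3 without. For this list and those below, 13% of all genes were higher and 11.7% lower in KO with glucose, and 25.9% and 24.9% without. SNRPB, a protein of the Sm ring, rose by 0.83 ± 0.11 and 1.13 ± 0.11 (edgeR adjusted p = 0.0011 and 0.00033). NCBP2, of the nuclear cap-binding complex, fell by 0.67 without glucose. Of 12 transcription factors and cyclin E-CDK2 genes, 2 were higher and none lower with glucose, with CREBBP at 0.58, and 2 higher and 3 lower without, with CDK2 at 0.44 and CCNE2, a cyclin E, at -0.68. POU2F1, which binds the octamer, was lower after glucose deprivation in WT (-0.92 ± 0.07, edgeR adjusted p = 0.015) and in KO (-0.67 ± 0.14, edgeR adjusted p = 0.011).

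Among 10 histone mRNA decay genes, none was higher and 2 were lower in KO with glucose, and 2 were higher and 3 lower without. UPF1, the helicase that starts decay of these mRNAs, was at -0.70 ± 0.07 in KO without glucose (edgeR adjusted p = 0.00038) and the difference of the KO effects was -0.59 ± 0.12 (edgeR adjusted p = 0.010). DCP2, a decapping enzyme, was at -0.44 and -0.72. The histone chaperones and importers had 1 of 22 higher and 7 lower with glucose, and 4 and 5 without. SUPT16H, a subunit of the FACT chaperone, fell by 1.23 with glucose and 1.49 without, and CABIN1, of the HIRA chaperone complex, by 1.24 and 1.37. NAP1L1, a chaperone of H2A-H2B, rose by 0.61 without glucose.

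Genes of S phase were called lower more often than higher in KO. Of 40, 3 were higher and 13 lower with glucose, against 13% and 11.7% of all genes, with a median of -0.22. Without glucose 8 were higher and 14 lower, against 25.9% and 24.9% of all genes, with a median of -0.06. CDC45 and MCM5, both of the replicative helicase, fell by 1.20 and 1.05 with glucose. CDT1 and MCM4, which load and form that helicase, rose by 0.98 and 0.93 without. Without KO1 of experiment 1 the calls in KO without glucose rose along with those over all genes (36.7% and 37.7%), to 10 higher and 5 lower of 18 for 3′ end processing, 6 and 4 of 12 for transcription, 3 and 6 of 10 for decay, 6 and 11 of 22 for chaperones and 11 and 21 of 40 for S phase. With glucose the members' median was 0.33 and that of the S phase genes -0.22, and the difference between the lists was not tested.

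The replication-independent histone genes, far more abundant in sum, moved in both directions. Most are polyadenylated, but the list holds H1-6, which carries the stem-loop letters, and H2AX, whose mRNA is known in a stem-loop and a polyadenylated form. Of 12 tested, 2 were higher and 4 lower in KO with glucose, and 4 and 5 without. MACROH2A2 rose by 0.78 ± 0.15 and 1.41 ± 0.12 (edgeR adjusted p = 0.0058 and 0.00016) and H2AJ by 0.38 and 0.75. MACROH2A1 fell by 0.35 with glucose and 0.30 without. H2AX, the variant phosphorylated at DNA breaks, was at 194 to 371 CPM in WT +Glc, 175 to 303 in KO +Glc and 253 to 311 in WT -Glc, and at 89.4 to 91.4 CPM in 3 of 4 KO -Glc libraries with 198 CPM in KO1 of experiment 1. Its change was -1.36 ± 0.28 without glucose (edgeR adjusted p = 0.0060), and the difference of the KO effects was -1.09 ± 0.29 (edgeR adjusted p = 0.034). Without the KO1 libraries of experiment 1 these were -1.63 ± 0.04 and -1.40 ± 0.11, both called. In the fit without glucose the only repeats of a genotype within an experiment are then the nearly alike pairs of experiment 2. The SE of 0.04 may therefore measure technical spread. H3-3B was higher in KO without glucose (0.42 ± 0.08, edgeR adjusted p = 0.0058), while H3-3A and H2AZ1 were called in neither comparison of KO with WT; without KO1 of experiment 1, H3-3A was called without glucose (0.21). Also called without those libraries were CREBBP (0.82) and POU2F1 (0.33) in KO without glucose, and CREBBP (0.30), POU2F1 (0.38) and CDC45 (0.32) in the difference of the KO effects.

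Among other RNAs without a poly(A) tail, 6 of 29 had enough reads to be tested with glucose and 4 without, and 1, SNORD17, was higher in KO without glucose (0.85). Their summed level, leaving out RMRP, was 49.5 CPM in KO1 +Glc and 62.9 CPM in KO1 -Glc of experiment 1, against 7.86 to 26.7 CPM in the other 12 libraries. The members whose exons run past the stem-loop summed to 81.5 and 93.0 CPM in these KO1 libraries and to 72.1 to 99.6 CPM in the other 6 KO libraries, and all 8 lay above the WT libraries (60.3 to 66.8 CPM). In bulk RNA a larger share of cells that hold histone mRNA and more of it per cell cannot be told apart. As the RNA was poly(A)-selected, neither can be told from a larger retained portion of the same amount of histone mRNA.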

How the data were processed

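RNA-seq libraries were poly(A)-selected. The authors aligned reads to GRCh38 (hg38) with HISAT2 and made the deposited counts per gene name with featureCounts v2.0.3 and the Ensembl 102 annotation, without strand and for primary alignments only, per the file headers; the aligner and build names also stand in the submitters' processing notes. With primary alignments counted, a read that maps to several places is counted at 1 of them, so reads of identical gene copies can be assigned to either. In 4 libraries (experiment 2 with glucose) both mates were counted, and in 10 single reads. Without strand, reads of overlapping antisense genes cannot be told apart; 14 members share exonic bases with another gene. Exon lengths came from the deposited tables and are other values, in bases.

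Counts were analysed with edgeR 4.0.16 (quasi-likelihood test, filterByExpr with a minimum count of 10, TMM) in R 4.3.3, over all genes, with experiment as a covariate and an adjusted p under 0.05; DESeq2 1.42.0 was an alternative. The script was tested on simulated data. CPM uses TMM factors over all 14 libraries. The labels number the experiments, which pairs the groups: the difference between experiments correlated across 14268 genes between WT and KO at 0.95 with glucose and 0.87 without, and between glucose conditions at 0.40 in WT and 0.33 in KO. Stem-loops and motifs were searched in GRCh38, and all 65 members overlapped the GENCODE 44 gene of the same name. Named members were the 4 with the highest mean CPM per class and up to 4 called members per direction and comparison; from each other list up to 2 called genes per direction were named, plus SLBP, NPAT, CASP8AP2, KMT2D and 6 replication-independent histone genes, of which 1 is not reported here; members named only because a count was small, or an alternative called them, were chosen after their values were seen. The members and lists were chosen with earlier results of these data known. Other settings are given in the closing section. No authors' comparison columns were present.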

Additional observations from a re-analysis of the deposited data

Results flagged for a closer look

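In groups of 4 libraries, 80 values were screened for a library far from the other 3 (by Dixon's criterion, the gap to the nearest library as a share of the group's range). The criterion flags about 1 in 20 values where the 4 libraries are independent draws. These groups span both experiments, hold the nearly alike KO pair without glucose, and the values include sums of the same members. That rate is therefore no yardstick here. There were 6 such values, and in each the far library was KO1 of experiment 1, as the highest. With glucose these were H1-4 (gap 0.837 of the range, 2.40 CPM against 0.52 to 0.82) and RMRP (0.954, 14.3 CPM against 0.33 to 0.97). Without glucose they were H4C5 (0.862, 2.70 CPM against 0.28 to 0.62), H4C8 (0.852, 3.57 CPM against 1.95 to 2.19), RMRP (0.949, 28.3 CPM against 0.19 to 1.63) and H2AX (0.982, 198 CPM against 89.4 to 91.4). No member's KO effect was called as different between glucose conditions.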

How the results depend on the processing

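Across all alternatives the 18 log2 fold changes of called members kept their sign in 289 of 289 refits and their call in 189. The experiment number was the block of the design; without that block no member was called in KO against WT with glucose (0 higher), 1 higher and 0 lower without glucose, 0 and 0 in deprived WT cells and 0 higher in deprived KO cells, and the interaction was as before. The count of members called moved as follows. In experiment 1 alone, KO against WT has 1 WT library per condition, and its median without glucose was 0.888. For deprived KO cells there, with a median of 0.104, the count was 0 higher, where 0 of 15946 genes were called in either direction. In experiment 2 alone it was 1 higher with glucose (median 0.551), 6 lower without, 1 lower in the interaction (median -0.308), 7 higher and 7 lower in deprived WT cells, and 4 higher and 10 lower in deprived KO cells (median -0.699); of all genes 25.4% and 21.1% were called in deprived WT and 26.5% and 24.2% in deprived KO cells there. With the close libraries summed it was 1 higher and 0 lower in KO against WT without glucose, 0 and 0 in deprived WT cells and 1 higher in deprived KO cells. With no filter on low counts it was 4 lower without glucose, 1 lower in the interaction, 5 and 5 in deprived WT cells and 3 lower in deprived KO cells. DESeq2 gave 4 higher in deprived WT cells and 1 lower in deprived KO cells, and library-size scaling 1 higher and 3 lower in deprived KO cells. Without both KO1 libraries of experiment 1, an alternative chosen after seeing the data, it was 6 lower without glucose, 4 lower in the interaction, and 1 higher and 3 lower in deprived KO cells. Halving the both-mates counts changed no count by more than 1.5 times. In experiment 1 deprived WT cells have 1 library per condition and gave values with no test.

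With 1 library left out in turn, members higher ranged from 1 to 6 and lower from 0 to 1 in KO against WT with glucose, from 4 to 8 and 2 to 6 without, from 0 to 0 and 0 to 3 in the interaction, from 0 to 6 and 0 to 7 in deprived WT cells, and from 1 to 2 and 0 to 6 in deprived KO cells; the median ranged from 0.261 to 0.542, 0.089 to 0.588, -0.141 to 0.373, -0.121 to -0.045 and -0.497 to -0.075. The share of all genes called moved in these fits too, in KO against WT with glucose from 5.31% to 13.5% higher. The cause was not tested, apart from the fewer libraries in these fits. With 24 members under the filter in every comparison, small changes of the low members were not detectable at this depth. Over all genes the higher and lower calls, 2658 and 2384 in KO against WT with glucose, 4342 and 4179 without, 884 and 1221 in the interaction, 1231 and 1305 in deprived WT cells and 2240 and 2573 in deprived KO cells, were without the block 495 and 476, 1706 and 1953, 20 and 50, 0 and 2, and 363 and 1102. DESeq2 gave 1805 and 1668 in the interaction, 4014 and 2199 in deprived WT cells and 4261 and 2790 in deprived KO cells. With the close libraries summed they were 1517 and 1268 in KO against WT without glucose, 66 and 192 in the interaction, 0 and 1 in deprived WT cells and 1101 and 1181 in deprived KO cells.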
